A study of Mus musculus with 6 samples.

Results

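The genes described here are those of the NF-kB pathway and of its targets other than chemokines: 36 genes listed by symbol, of which 32 were measured among the 30142 genes on the arrays. A gene counted as measured when a transcript cluster, the array's unit of readout, carried that symbol and no other, and its brightest cluster over the 6 arrays was used. Traf3, Ripk1, Chuk and Nfkb1 had no such cluster and were not analysed here. The arrays were Affymetrix MTA 1.0 whole-transcript arrays, 1 for each of 6 tumors, read with biotin-labelled total RNA from sorted prostate tumor cells of male mice. All 6 tumors were allografts of MCRedAL, a mouse prostate tumor line marked by the red fluorescent protein mCherry. The sort kept mCherry-positive cells that lacked the immune markers CD45, F4/80 and CD11b. The 3 tumors titled Intact were untreated. The 3 titled 7dPC came from mice given degarelix, which blocks the receptor for gonadotropin-releasing hormone and so withdraws androgen. It was given subcutaneously at a tumor size of about 500 mm2, and the tag 7dPC is not explained in the labels. Mice were randomized, the labels call the tumors biological replicates, and the sources used here give neither the strain nor the age of the hosts. Measured against the brightest of the array's background probe sets, some epithelial markers stood out and others did not: of 6 epithelial markers Krt8 and Cldn4 were above it on all 6 arrays, but Epcam, Cdh1, Krt18 and Cldn7 on none. Of all 30142 genes 18976 were above it on no array, so a gene below it need not be absent. Of 4 prostate markers Foxa1 and Hoxb13 were above it on all arrays and Tmprss2 and Pbsn on none, and none of these 10 genes passed the test between groups with all 6 tumors.

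NF-kB is a family of transcription factors made of paired Rel subunits, which inhibitors of the IkB family hold in the cytoplasm. In the canonical route, receptors for signals such as tumor necrosis factor recruit adaptors and ubiquitin ligases, which switch on the IkB kinases, and the kinases mark IkB for destruction. In the noncanonical route the kinase that Map3k14 encodes drives the processing of the Nfkb2 product, which pairs with the product of Relb. Some targets of NF-kB encode its own inhibitors, so the pathway carries a feedback loop, and epithelial cells use the pathway for survival and for signals to immune cells.

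Rises outnumbered falls among these genes. After degarelix 17 of the 32 measured members (53.1%) rose and 2 (6.25%) fell, against 4.19% of all genes that rose and 7.51% that fell, and the other 13 did not pass the test. The test was limma on log2 values, p-values were adjusted by Benjamini and Hochberg's method across the whole table, and a gene was called at an adjusted p under 0.05. By this rule 11.7% of all genes were called. The members were chosen with earlier results of these data known, which the comparison with all genes does not allow for. Changes are degarelix minus untreated in log2 units. The members' median change was 0.36, beside 0.04 over all genes. Among the 15030 genes whose mean level lay within the members' range, from 5.49 to 10.87, 7.09% rose and 12.7% fell. All 3 treated values lay above all 3 untreated ones for 23 members, against 14.8% of all genes, and below them for 2, against 16.4%, and 31.2% of all genes had groups that did not overlap. In the members' range of levels, 16.8% of genes had all treated values above and 25.2% had them below. The largest rises were those of Icam1, an adhesion molecule that binds leukocyte integrins, at 1.19 (SE 0.13), and of Zc3h12a, an RNase that degrades inflammatory transcripts, at 0.78 (SE 0.12). The TNF receptor gene Tnfrsf1b followed at 0.70, and Tnip1, whose product binds the ubiquitin-editing protein A20, at 0.69. The falls were those of Sod2, the mitochondrial superoxide dismutase gene, at -0.36 and the IkB kinase gene Ikbkb at -0.28. When every array was set to the same median, 11 members rose and 2 fell, and the rises of Tnfrsf1a, Ikbke, Nfkb2, Nfkbia, Nfkbie and Bcl3 lost their call (adjusted p = 0.0509 to 0.0886). On leaving out single tumors the counts moved most without degarelix replicate 1, when 10 rose, and degarelix replicate 2, when 11 rose. No member fell without either of them, nor without untreated replicate 2 or 3.

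**Figure D1:**
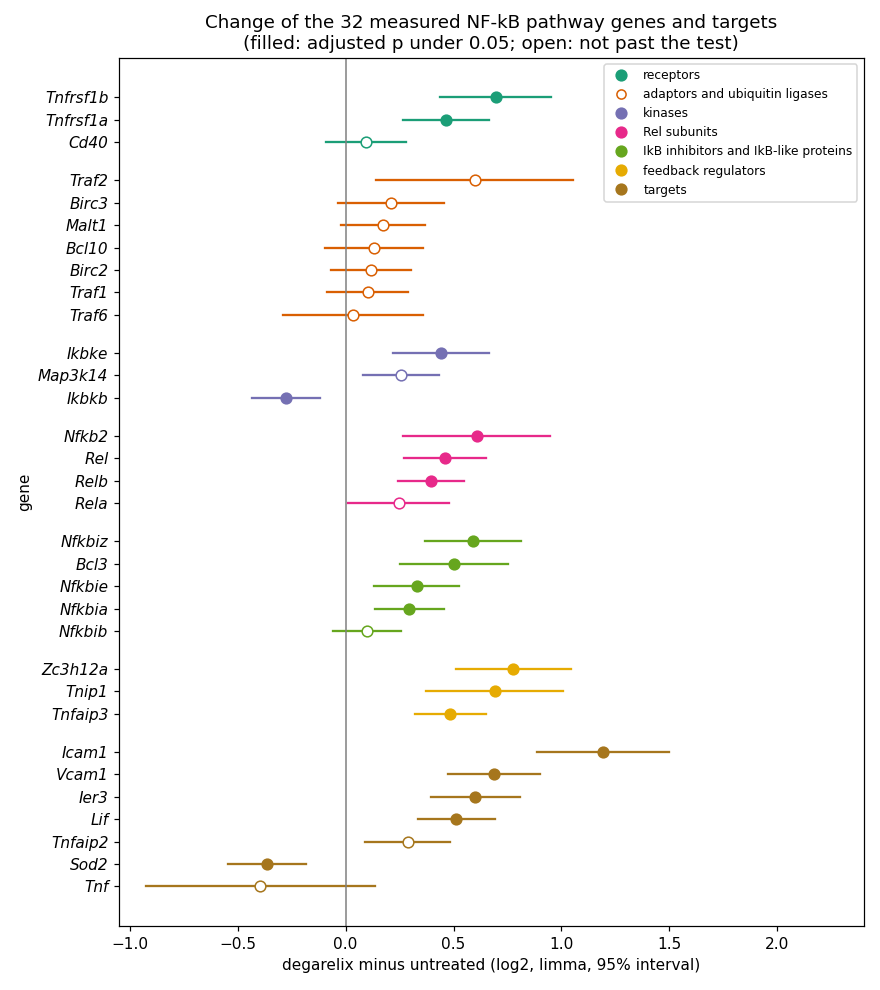
Log2 change of each of the 32 measured members (degarelix minus untreated) and its 95% interval from limma, grouped and coloured by role. Filled points passed the test and open ones did not: 17 of the filled points lie to the right of 0, Icam1 farthest, and those of Ikbkb and Sod2 lie to the left.

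The promoters of the 4 members with the largest rises and of Sod2, the member with the largest called fall, are shown, picked by the size of the change. These promoters differ in their matches to letters that NF-kB is known to bind. Each is the 250 bases before the start that RefSeq gives (build GRCm38.p6), 5′ to 3′ on the gene's strand. Capitals mark every match on either strand to a broad pattern: GGG, any 5 bases, then CC. Icam1 lies at chr9:21015690-21015939, plus strand, Zc3h12a at chr4:125127882-125128131, minus strand, Tnfrsf1b at chr4:145246871-145247120, minus strand, Tnip1 at chr11:54962941-54963190, minus strand, and Sod2 at chr17:13007589-13007838, plus strand.
Icam1: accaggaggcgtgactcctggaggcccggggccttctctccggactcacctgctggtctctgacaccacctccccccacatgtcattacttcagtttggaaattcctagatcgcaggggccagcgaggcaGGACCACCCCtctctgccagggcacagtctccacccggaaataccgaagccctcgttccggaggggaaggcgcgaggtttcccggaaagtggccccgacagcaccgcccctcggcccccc
Zc3h12a: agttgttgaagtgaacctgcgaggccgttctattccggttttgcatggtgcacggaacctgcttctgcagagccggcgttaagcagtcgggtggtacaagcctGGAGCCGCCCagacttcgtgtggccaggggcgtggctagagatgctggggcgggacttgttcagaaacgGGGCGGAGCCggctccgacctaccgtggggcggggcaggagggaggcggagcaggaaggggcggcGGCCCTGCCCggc
Tnfrsf1b: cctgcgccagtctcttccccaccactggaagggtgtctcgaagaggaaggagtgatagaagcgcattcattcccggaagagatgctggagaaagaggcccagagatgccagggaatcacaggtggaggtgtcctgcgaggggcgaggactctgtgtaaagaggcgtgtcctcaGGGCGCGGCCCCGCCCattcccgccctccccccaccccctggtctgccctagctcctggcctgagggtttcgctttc
Tnip1: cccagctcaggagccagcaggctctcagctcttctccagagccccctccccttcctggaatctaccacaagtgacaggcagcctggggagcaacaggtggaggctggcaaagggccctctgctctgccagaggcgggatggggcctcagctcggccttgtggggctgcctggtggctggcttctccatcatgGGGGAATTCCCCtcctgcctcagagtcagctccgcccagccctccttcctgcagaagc
Sod2: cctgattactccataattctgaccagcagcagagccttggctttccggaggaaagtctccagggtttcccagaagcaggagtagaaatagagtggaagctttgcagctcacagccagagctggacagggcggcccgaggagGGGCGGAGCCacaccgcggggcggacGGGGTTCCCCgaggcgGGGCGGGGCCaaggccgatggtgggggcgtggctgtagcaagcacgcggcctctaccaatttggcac

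In Tnip1 the capitals are a palindrome from 58 to 47 bases before the start, and the GGGAATTCCC inside it also meets the narrower kB consensus. That consensus is GGGRNYYYCC, with R for A or G, Y for C or T and N for any base. In Sod2, whose transcript fell, GGGGTTCCCC from 83 to 74 bases before the start meets the consensus too. The matches in Zc3h12a and Tnfrsf1b are GC-rich and do not meet it. The single match in Icam1, GGGGTGGTCC on the opposite strand from 120 to 111 bases before the start, does not meet it either. Both patterns open with GGG, so letters such as the tggaaattcc left in lower case in Icam1 could not match. Sites without GGG were not searched for, and an unmarked stretch does not show that no site is present. Promoters were in the table for 26 of the 32 measured members, and those of Cd40, Malt1, Ikbkb, Relb, Nfkbiz and Vcam1 were not analysed here. The narrower consensus stood before at least 1 start of 8 of them (30.8%), Bcl10, Nfkb2, Rel, Nfkbia, Tnfaip3, Tnip1, Tnfaip2 and Sod2, against 5.67% of all 27025 genes. Of these 8, 5 rose, 1 fell and 2 did not pass the test, and of the 18 without it 9 rose. The broad pattern stood before 84.6% of the 26 and 48.7% of all genes. The members' promoters had a median GC content of 62.6%, beside 52.4% over all promoters. Counted by promoter and not by gene, 30% of the members' 30 promoters held the consensus, beside 7.67% of promoters of like GC content. A match describes letters and was not tested as a binding site.

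Both TNF receptor genes rose. Tnfrsf1a, the receptor found on most cells, was at 7.58, 7.81 and 7.81 in the untreated tumors and at 8.24, 8.10 and 8.26 after degarelix. It rose by 0.46 (SE 0.09, adjusted p = 0.012 in limma), or 1.38-fold, with no overlap of the groups, a call lost without degarelix replicate 1 (adjusted p = 0.0558). Tnfrsf1b, a receptor best known from immune and endothelial cells, was at 7.44, 6.999 and 7.38 in the untreated tumors and at 7.995, 7.97 and 7.94 after degarelix. The treated tumors lay close together and above every untreated one, a rise of 0.70 (SE 0.11, adjusted p = 0.00624 in limma). Cd40, a receptor of antigen-presenting cells that also feeds the noncanonical route, lay between 6.15 and 6.35 in untreated and between 6.23 and 6.41 in treated tumors. Its groups overlapped, its 95% interval of the change ran from -0.09 to 0.28, and its signal was below the brightest background probe set on all 6 arrays.

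None of the 7 measured adaptors and ubiquitin ligases passed the test, and all 7 changes were above 0, with a median of 0.13. Traf2, an adaptor of TNF receptors, was at 7.27, 8.04 and 8.14 in the untreated tumors and at 8.36, 8.35 and 8.52 after degarelix. Its groups did not overlap, but the untreated tumors were spread widely, and the change of 0.60 (SE 0.20) had an adjusted p of 0.0957 in limma. Without untreated replicate 1, the lowest of them, it was 0.32 and passed (adjusted p = 0.0386), as it did with array weights (adjusted p = 0.0474). Traf6, which serves interleukin-1 and Toll-like receptors, had a change of 0.04 with a 95% interval from -0.29 to 0.36. Its sign depended on the scaling and on single tumors: -0.012 with median centring, -0.13 without untreated replicate 1 and -0.021 without degarelix replicate 3. Birc2 and Birc3, the ubiquitin ligases that restrain the noncanonical kinase, had changes of 0.12 and 0.21, with intervals from -0.07 to 0.30 and from -0.04 to 0.45. Bcl10 and Malt1, partners in the complex that links antigen receptors to the IkB kinases, had 0.13 and 0.17, with intervals from -0.10 to 0.36 and from -0.02 to 0.37. Traf1, itself an NF-kB target, had 0.10, with an interval from -0.09 to 0.29. The intervals of these 5 genes reach no higher than that of Birc3, 0.45. Traf1, Birc3 and Malt1 were below the brightest background probe set on all 6 arrays.

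Of the 3 measured kinases 1 rose and 1 fell. Ikbkb, a catalytic subunit of the canonical IkB kinase, was at 8.06, 8.15 and 8.20 in the untreated tumors and at 7.89, 7.83 and 7.86 after degarelix. Every treated value lay below every untreated one, 1.21-fold lower in the mean (-0.28, SE 0.07, adjusted p = 0.0343 in limma). That call was lost without untreated replicate 2 or 3 or any 1 of the degarelix tumors (adjusted p = 0.0523 to 0.135), and the change was -0.20 with quantile normalization (adjusted p = 0.0596). Ikbke, a related inducible kinase, was at 6.50, 6.87 and 6.75 in the untreated tumors and at 7.19, 7.13 and 7.12 after degarelix. It rose by 0.44 (SE 0.10, adjusted p = 0.0224 in limma), a call lost without untreated replicate 3 or degarelix replicate 1 or 2 (adjusted p = 0.0558 to 0.0878). Map3k14, the noncanonical kinase, was at 6.96, 6.79 and 6.74 in the untreated tumors and at 7.12, 7.05 and 7.08 after degarelix. Its groups did not overlap, and its change of 0.26 (SE 0.08) missed the threshold (adjusted p = 0.0689 in limma) but passed it without untreated replicate 1 (adjusted p = 0.0207), with quantile normalization (adjusted p = 0.046) and with array weights (adjusted p = 0.00971).

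Of the 4 measured Rel subunits 3 rose. Nfkb2, the precursor of the noncanonical route, was at 7.99, 8.63 and 8.51 in the untreated tumors and at 9.02, 8.92 and 9.02 after degarelix. Untreated replicate 1 stood below the other untreated tumors, and the rise was 0.61 (SE 0.15, adjusted p = 0.0336 in limma). Its partner Relb was at 7.87, 7.99 and 7.93 in the untreated tumors and at 8.31, 8.31 and 8.36 after degarelix. The spread within each group was small beside the rise of 0.39 (SE 0.07, adjusted p = 0.0075 in limma). Rel, the subunit also called c-Rel, was at 9.06, 8.91 and 8.99 in the untreated tumors and at 9.34, 9.42 and 9.58 after degarelix. It rose by 0.46 (SE 0.08, adjusted p = 0.0102 in limma), without overlap. Rela, the main activating subunit of the canonical route, was at 9.44, 9.78 and 9.76 in the untreated tumors and at 9.87, 9.85 and 9.996 after degarelix. These groups did not overlap either, but its change of 0.25 (SE 0.10, 95% interval from 0.01 to 0.48) did not pass (adjusted p = 0.176 in limma). It did pass with cyclic loess (adjusted p = 0.0164) and with quantile normalization (adjusted p = 0.0283), at changes of 0.36 and 0.31. Nfkb2 lost its call without untreated replicate 3 or any 1 of the degarelix tumors (adjusted p = 0.057 to 0.118), whereas Rel and Relb kept theirs in all 14 alternatives. Whether the changes of Rela and of the other subunits differ was not tested.

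**Figure D2:**
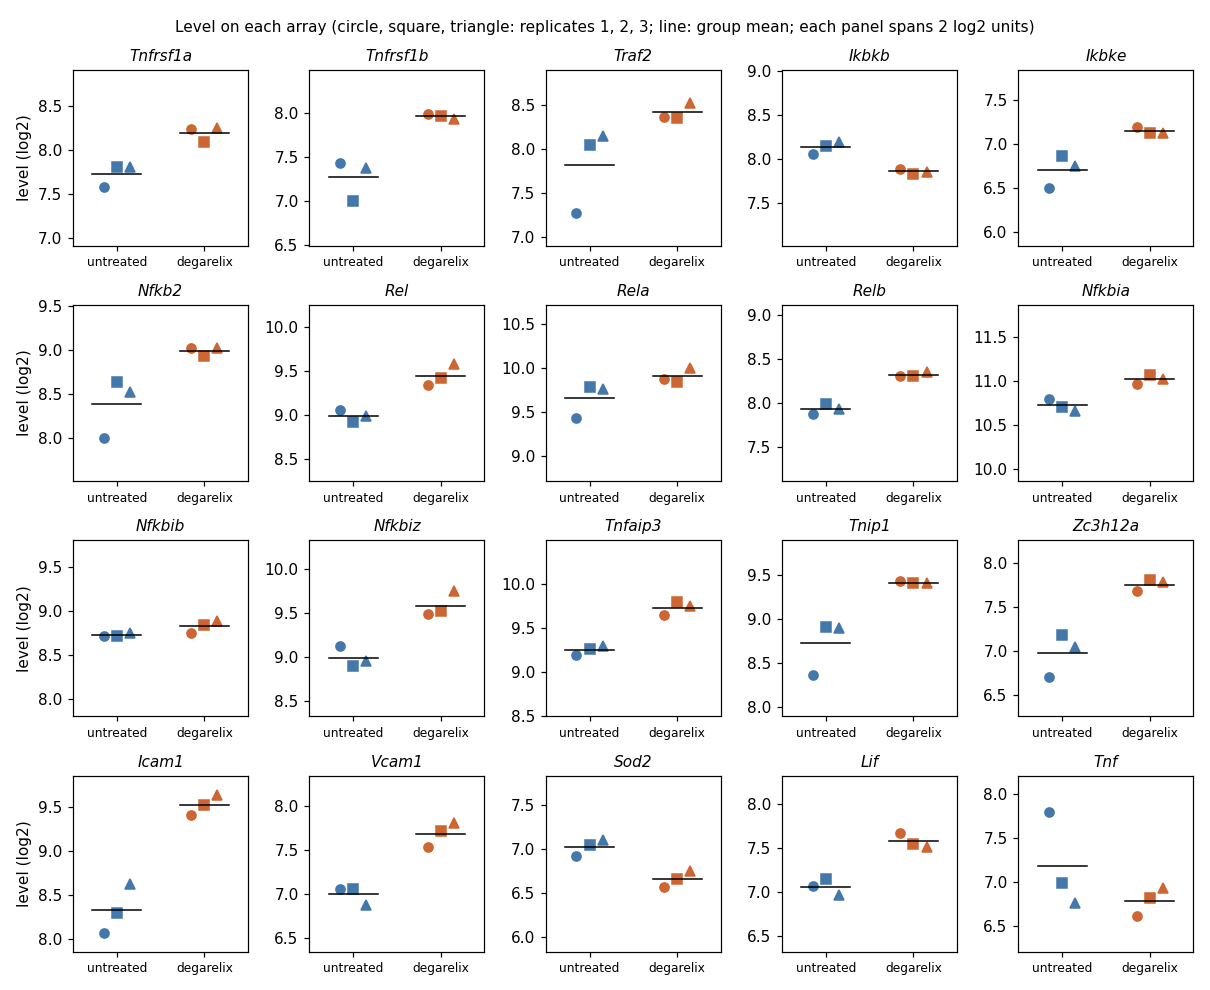
Level of 20 members on each array on the log2 scale, with the 3 untreated tumors in blue, the 3 degarelix tumors in orange, a marker shape for each replicate number and a line at the group mean. Treated values of Icam1, Zc3h12a, Tnfaip3 and Relb lie above all untreated ones, those of Ikbkb and Sod2 lie below them, and Nfkbib and Tnf overlap.

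Of the 5 inhibitors of the IkB family and proteins like them, 4 rose. Nfkbia encodes IkB-alpha, the inhibitor that NF-kB induces most directly, and was at 10.80, 10.71 and 10.66 in the untreated tumors and at 10.96, 11.06 and 11.03 after degarelix. The groups did not overlap, and the rise of 0.29 (SE 0.07, adjusted p = 0.0303 in limma) was 1.23-fold. Nfkbie, which encodes IkB-epsilon, was at 6.21, 6.003 and 5.997 in the untreated tumors and at 6.40, 6.49 and 6.31 after degarelix and rose by 0.33 (SE 0.09, adjusted p = 0.0418 in limma). Its signal stayed below the brightest background probe set on all 6 arrays. Nfkbib, which encodes IkB-beta, lay between 8.71 and 8.75 in untreated and between 8.74 and 8.89 in treated tumors. These values overlapped, and the 95% interval of the change ran from -0.06 to 0.26. Nfkbiz and Bcl3 encode nuclear proteins of the same fold that tune which targets are transcribed. Nfkbiz was at 9.12, 8.89 and 8.95 in the untreated tumors and at 9.48, 9.51 and 9.75 after degarelix, a rise of 0.59 (SE 0.10, adjusted p = 0.00647 in limma). Bcl3 was at 7.37, 7.73 and 7.77 in the untreated tumors and at 8.12, 8.07 and 8.18 after degarelix, a rise of 0.50 (SE 0.11, adjusted p = 0.0215 in limma). Neither had overlapping groups. Calls were lost for Nfkbia without any 1 tumor but untreated replicate 1 (adjusted p = 0.0516 to 0.129), for Nfkbie without untreated replicate 2 or 3 or degarelix replicate 1 or 2 (adjusted p = 0.126 to 0.161) and for Bcl3 without any 1 of the degarelix tumors (adjusted p = 0.0569 to 0.0763).

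All 3 feedback regulators rose. Tnfaip3 encodes A20, which removes and adds ubiquitin on adaptors and so shuts the pathway off, and was at 9.19, 9.27 and 9.29 in the untreated tumors and at 9.65, 9.80 and 9.76 after degarelix. The rise of 0.48 (SE 0.07, adjusted p = 0.0041 in limma) was several times the spread within either group. Tnip1, which encodes a partner of A20, was at 8.36, 8.91 and 8.91 in the untreated tumors and at 9.43, 9.41 and 9.41 after degarelix. The treated tumors lay close together, while untreated replicate 1 lay 0.55 below the mean of the other untreated tumors. Its rise of 0.69 (SE 0.14, adjusted p = 0.0157 in limma) lost its call without degarelix replicate 1 (adjusted p = 0.0647) or 2 (adjusted p = 0.0511). Zc3h12a was at 6.71, 7.18 and 7.04 in the untreated tumors and at 7.68, 7.80 and 7.78 after degarelix. It rose 1.71-fold (adjusted p = 0.00426 in limma), with no overlap.

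Of the 7 measured targets 4 rose and 1 fell. Icam1 was at 8.07, 8.29 and 8.62 in the untreated tumors and at 9.41, 9.52 and 9.63 after degarelix. The lowest treated value lay well above the highest untreated one, and the difference was 2.29-fold (adjusted p = 0.00101 in limma). Vcam1, an adhesion molecule for leukocytes of endothelium and stroma, was at 7.05, 7.06 and 6.87 in the untreated tumors and at 7.53, 7.72 and 7.80 after degarelix. It rose by 0.69 (SE 0.09, adjusted p = 0.00247 in limma), also without overlap. Lif, which encodes the cytokine leukemia inhibitory factor, was at 7.07, 7.15 and 6.97 in the untreated tumors and at 7.67, 7.54 and 7.51 after degarelix, a rise of 0.51 (SE 0.08, adjusted p = 0.00469 in limma). Ier3, an early response gene that affects survival, was at 5.82, 6.06 and 6.13 in the untreated tumors and at 6.59, 6.59 and 6.64 after degarelix. Its rise of 0.60 (SE 0.09, adjusted p = 0.00427 in limma) was measured below the brightest background probe set on all 6 arrays. Sod2 was at 6.92, 7.04 and 7.09 in the untreated tumors and at 6.56, 6.66 and 6.74 after degarelix. It fell, with every treated value below every untreated one (-0.36, SE 0.08, adjusted p = 0.022 in limma), a call lost without untreated replicate 2 or 3 or degarelix replicate 1 or 2 (adjusted p = 0.0746 to 0.0862). The signal of Sod2 was above the brightest background probe set on only 3 of the 6 arrays. Tnfaip2, a gene first found as induced by tumor necrosis factor, had a change of 0.29 (SE 0.09, adjusted p = 0.067 in limma) without overlap, and passed without untreated replicate 1 (adjusted p = 0.0454), with the replicate block (adjusted p = 0.0409) and with array weights (adjusted p = 0.0257).

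Tnf, which encodes tumor necrosis factor and is both a ligand and a target of the pathway, did not pass the test. It was at 7.79, 6.98 and 6.76 in the untreated tumors and at 6.61, 6.81 and 6.93 after degarelix. Untreated replicate 1 was 0.92 above the mean of the other untreated tumors, and the rest overlapped. The change was -0.40 (SE 0.23, 95% interval from -0.93 to 0.14) with all tumors and -0.088 without that one. The same tumor was highest in macrophage transcripts: the mean log2 level of 10 macrophage markers was 7.03 there, 5.75 and 6.28 in the other untreated tumors and 5.78 to 5.82 after degarelix. The lysozyme gene Lyz2 was at 9.02 there, 6.26 and 7.65 in the others and 5.51, 5.98 and 6.27 after degarelix. The part of macrophage RNA in the level of Tnf was not tested. In sorted bulk RNA, fewer cells of a type and less RNA per cell cannot be told apart.

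Of all members, 16 had their lowest untreated value in untreated replicate 1 and 11 their highest. Against the mean of the other untreated tumors, Traf2 differed there by -0.82, Nfkb2 by -0.58, Tnip1 by -0.55 and Traf6 by -0.51, the members that lay lowest. Besides Tnf, Birc3 at 0.32 and Tnfrsf1b at 0.25 lay highest in the same comparison. Members varied more among untreated than among treated tumors: the SD was larger in untreated tumors for 23 of 32, and its median was 0.12 there and 0.09 after degarelix, beside 0.09 in each group over all genes. The shares of all genes lowest and highest in untreated replicate 1 were not counted. Its array also differed from the other untreated arrays as a whole. There 30.35% of all genes were above the brightest background probe set, beside 34.85% and 35.07%, and that probe set was at 6.93, beside 6.61 and 6.59. With 1 array per tumor, tumor and array cannot be told apart, and these differences were not tested.

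Some markers of other cells, and immediate early genes, also differed between the groups. Of 8 fibroblast markers 2 rose, Dcn by 1.46 (SE 0.29) and Fbln1 by 1.07 (SE 0.11), and none fell. The median change of the 8 was 0.29, and the smallest was 0.04, that of Thy1. The mean log2 level of the list ran from 7.46 to 7.73 in untreated and from 7.85 to 8.47 in treated tumors. It was highest in degarelix replicate 3, as were Vcam1, Icam1, Rel, Rela and Nfkbiz. The list was at 8.07 in degarelix replicate 1 and at 7.85 in degarelix replicate 2. Rela had the same order, while Vcam1, Icam1, Rel and Nfkbiz were higher in degarelix replicate 2 than in degarelix replicate 1. Of the members, 19 had their highest treated value in that tumor, 8 in degarelix replicate 1 and 5 in degarelix replicate 2. Among the other rises, Tnfaip3 and Zc3h12a were highest in degarelix replicate 2, and Tnfrsf1b and Lif were lowest in degarelix replicate 3 of the treated tumors. The share of all genes highest in degarelix replicate 3 was not counted. Without degarelix replicate 3, 14 members rose and 1 fell. Of 8 measured immediate early genes, which also answer to the handling of tissue, 4 rose, Dusp1 by 0.89, Fosb by 0.69, Jun by 0.65 and Fos by 0.54. Fos lost its call with median centring and the replicate block (adjusted p = 0.0562 to 0.0726) and without untreated replicate 2 or 3 or degarelix replicate 1 (adjusted p = 0.063 to 0.0894). Fosb lost its call with median centring (adjusted p = 0.0608) and without any 1 tumor but untreated replicate 1 (adjusted p = 0.0554 to 0.0884). Their list ran from 9.11 to 9.24 in untreated and from 9.57 to 9.87 in treated tumors. The part of fibroblasts and of handling in the rises was not tested. None of 8 endothelial, 6 leukocyte, 10 macrophage, 7 lymphocyte or 5 dendritic cell markers passed the test, and 1 of 6 neutrophil markers rose, Ly6g by 0.38 (SE 0.10, adjusted p = 0.0474 in limma). The call of Ly6g was lost in 9 of the 14 alternatives: the other 3 scalings and the replicate block (adjusted p = 0.0511 to 0.068), and without any 1 tumor but degarelix replicate 3 (adjusted p = 0.0841 to 0.169). Without untreated replicate 2, the untreated tumor lowest in macrophage transcripts, 6 of 10 macrophage, 2 of 6 leukocyte and 1 of 8 endothelial markers fell, and 1 of 6 epithelial markers rose. Mean log2 levels ran from 5.94 to 6.35 in untreated and from 6.001 to 6.01 in treated tumors for endothelial and from 5.26 to 6.05 in untreated and from 5.33 to 5.46 in treated tumors for leukocyte markers. All measured leukocyte, neutrophil, lymphocyte and dendritic cell markers were below the brightest background probe set on all 6 arrays, as were 6 of 10 macrophage and 6 of 8 endothelial markers.

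**Figure D3:**
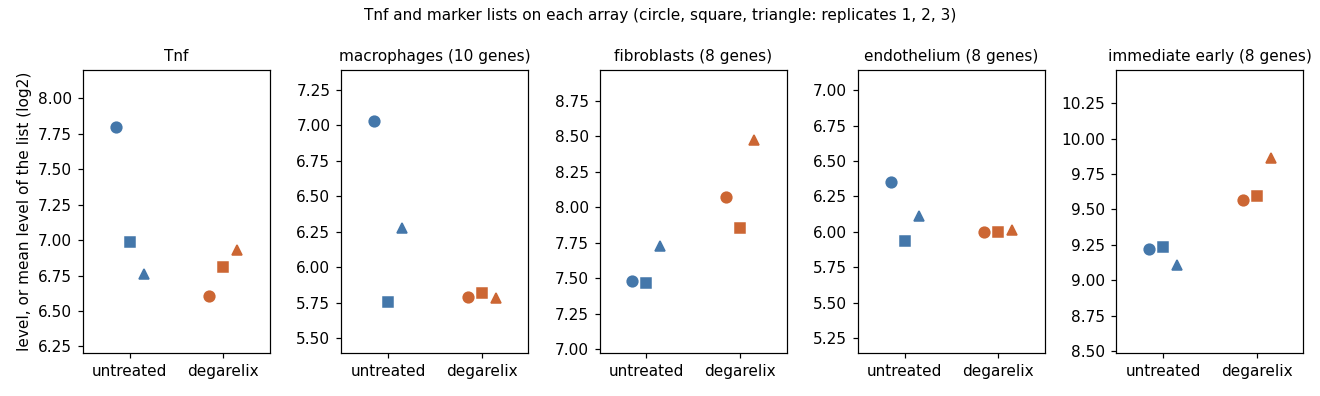
Level of Tnf and mean level of 4 marker lists on each array, on the log2 scale, with untreated tumors in blue, degarelix tumors in orange and a marker shape for each replicate number. Untreated replicate 1 (circle) is highest for Tnf and for the macrophage list, and the treated tumors are highest for the fibroblast and immediate early lists.

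Among 73 other measured genes of NF-kB signalling, 8 (11%) rose and 2 (2.74%) fell, beside 4.19% and 7.51% of all genes, and the median change was 0.07. Those called in either direction made up 13.7%, near the 11.7% of all genes. Of 26 receptors and adaptors 1 (3.85%) rose, a share below that of all genes: Irak2, a kinase-like adaptor of interleukin-1 and Toll-like receptors, at 6.77, 7.09 and 6.89 in the untreated tumors and at 7.30, 7.33 and 7.37 after degarelix. The change was 0.41 (SE 0.09, adjusted p = 0.021 in limma), and the call was lost without untreated replicate 3 or any 1 of the degarelix tumors (adjusted p = 0.0511 to 0.0726). Of 16 kinases and parts of the ubiquitin machinery 1 (6.25%) fell, a share below the 7.51% of all genes. This was Map3k7, which encodes the IkB kinase activator TAK1. It was at 7.46, 7.43 and 7.46 in the untreated tumors and at 7.06, 7.13 and 7.25 after degarelix. Its change of -0.30 (SE 0.07, adjusted p = 0.0329 in limma) lay in the direction of Ikbkb and lost its call without untreated replicate 2 or 3 or degarelix replicate 1 or 2 (adjusted p = 0.0906 to 0.123). Ikbkg, the regulatory subunit of the IkB kinase, had a change of -0.16 (SE 0.08) and did not pass. Of 13 negative regulators 1 (7.69%) rose, beside 4.19% of all genes. The deubiquitinase gene Otud7b rose by 0.29 (SE 0.08, adjusted p = 0.0489 in limma), a call lost without any 1 of the 6 tumors (adjusted p = 0.0642 to 0.132).

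Of 18 further targets 6 (33.3%) rose and 1 (5.56%) fell, beside 4.19% and 7.51% of all genes. The prostaglandin synthase gene Ptgs2 was at 9.59, 9.23 and 9.76 in the untreated tumors and at 10.45, 10.44 and 10.45 after degarelix, a rise of 0.92 (SE 0.12, adjusted p = 0.00252 in limma), without overlap. Tnfrsf9, a receptor known from activated T cells, was at 6.24, 6.18 and 6.32 in the untreated tumors and at 6.86, 6.91 and 6.90 after degarelix and rose by 0.64 (SE 0.07, adjusted p = 0.000805 in limma). Its signal was above the brightest background probe set on the 3 treated arrays only. Plk3, a stress-responsive kinase gene, was at 8.95, 8.88 and 8.91 in the untreated tumors and at 9.49, 9.29 and 9.52 after degarelix and rose by 0.52 (SE 0.08, adjusted p = 0.00443 in limma). Saa3, an acute-phase protein gene that NF-kB and related factors induce, was at 7.24, 7.02 and 7.30 in the untreated tumors and at 6.37, 6.21 and 6.13 after degarelix. It fell, against the other called targets of this list, with a change of -0.95 (SE 0.10, adjusted p = 0.000694 in limma), so that called targets moved in both directions in the same tumors. The signal of Saa3 was above the brightest background probe set on the 3 untreated arrays only. In these 73 genes 4 rose and 1 fell with median centring, beside 2.29% and 6.43% of all genes, and 4 rose and 1 fell without degarelix replicate 2, beside 2.39% and 3.69%.

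**Figure D4:**
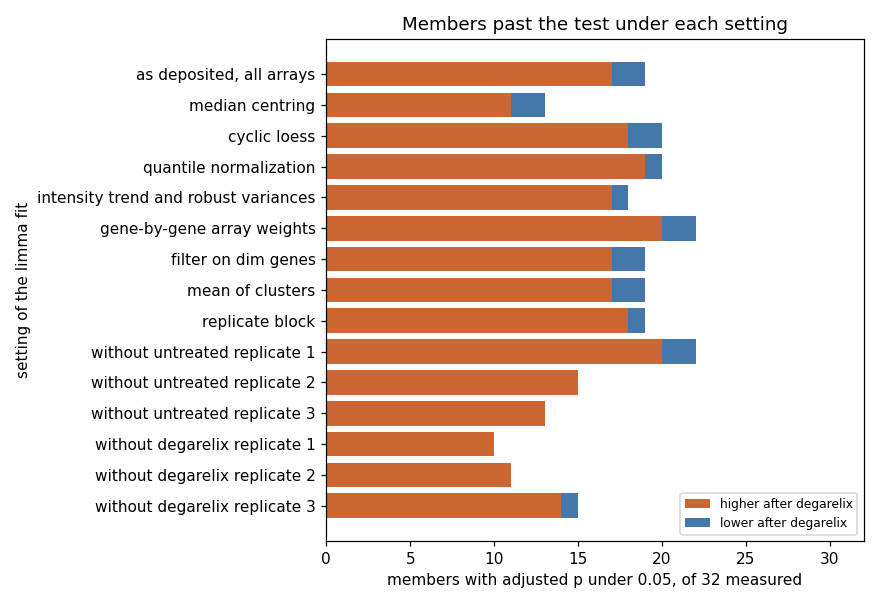
Number of the 32 measured members past the limma test at an adjusted p under 0.05 under each setting, with rises in orange and falls in blue. The bar is shortest without degarelix replicate 1, where 10 rose and none fell, and longest, at 20 rises and 2 falls, with gene-by-gene array weights and without untreated replicate 1.

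These counts stand beside the shares of all genes that rose and that fell under the same setting. Under median centring 11 members rose and 2 fell, beside 2.29% and 6.43% of all genes. Cyclic loess gave a background of 5.14% and 6.65%, and 18 members rose and 2 fell. Under quantile normalization the background was 5.46% and 6.7%, and 19 members rose and 1 fell. An intensity trend with robust variances had 4.05% and 7.23% of all genes, and 17 members rose and 1 fell. Gene-by-gene weights called 16.8% and 16.1% of all genes, the most of any setting, and 20 members rose and 2 fell. After dropping dim genes the background was 4.98% and 8.86%, with averaged clusters 4.21% and 7.6%, and in both 17 members rose and 2 fell. The replicate block had 4.76% and 7.87%, and 18 members rose and 1 fell. Leaving out an untreated tumor gave 4.8% and 10.8% of all genes for replicate 1, where 20 members rose and 2 fell, 2.53% and 4.48% for replicate 2, where 15 members rose and 0 fell, and 2.62% and 3.92% for replicate 3, where 13 members rose and 0 fell. Leaving out a degarelix tumor gave 2.07% and 3.2% for replicate 1, where 10 members rose and 0 fell, 2.39% and 3.69% for replicate 2, where 11 members rose and 0 fell, and 5.48% and 7.19% for replicate 3, where 14 members rose and 1 fell. In each setting the share of members that rose was above that of all genes.

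The 10 members that kept their call in all 14 alternatives were Tnfrsf1b, Rel, Relb, Nfkbiz, Tnfaip3, Zc3h12a, Icam1, Vcam1, Ier3 and Lif. All 10 are rises, and they include a receptor, Rel subunits of both routes, a nuclear protein like IkB, feedback regulators and targets. Neither fall is among them.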

How the data were processed

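Per the labels, total RNA with an integrity number of at least 9 was labelled with biotin and read on 1 array per tumor. The deposited table holds log2 expression values, made by the authors with Affymetrix Expression Console and RMA per the submitters' processing notes; versions and settings were not given in the sources used here. The method removes background, equalises the arrays' distributions and combines the probes of a cluster, which compresses changes of dim genes. Control probe sets were left out. The 23 background probe sets reached 6.93, and array medians over clusters were 4.70 to 4.84; the number of arrays, 3 per group, limits the precision. Of 65956 clusters 30604 had 1 symbol in the platform annotation, 2146 several and 33206 none. Of the symbols, 827 were replaced by current ones through Entrez identifiers, from RefSeq genes of GRCm38.p6.

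Degarelix was compared with untreated with lmFit and eBayes in limma 3.58.1 (R 4.3.3), two-sided, over all 30142 genes and without a filter on dim genes. The procedure was tested on simulated data. There it called 96 of 100 genes given a log2 change of 1 in either direction and 47 of 100 given one of 0.5. Of 29942 genes without a change it called 6. A gene that did not pass may therefore still have changed. All members were named. Of the other pathway genes, up to 4 called genes per list by smallest p were named, with any called against the majority of its list; Ikbkg, Ly6g, Dcn, Fbln1, Lyz2 and the immediate early and epithelial genes were named after their values were seen. Members, roles, marker lists and tests were chosen with earlier results of these data known. Alternatives were leaving out each tumor, the replicate number as a block, other scalings (median centring, quantile normalization, cyclic loess), array weights fitted gene by gene, an intensity trend with robust variances, dropping dim genes, and averaging the clusters of a gene.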

Additional observations from a re-analysis of the deposited data

How the results depend on the processing

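The number of genes changed, 3526, was 9912 with gene-by-gene array weights and 1590 to 4700 on leaving out 1 tumor. The number of members changed, 19, was 10 to 22 on leaving out 1 tumor; 17 rises became 11 with median centring and 10 to 20 on leaving out 1 tumor; 2 falls became 1 with quantile normalization, with an intensity trend and robust variances or with the replicate block, and 0 to 2 on leaving out 1 tumor. The 10 changed genes of the wider list were 5 with median centring, 23 with array weights and 5 to 13 on leaving out 1 tumor. Among the 32 members and the 7 genes of the wider list run under each alternative, the sign turned for Traf6, which is uncalled: -0.012 with median centring, -0.086 with array weights and -0.13 to 0.17 on leaving out 1 tumor. Leaving out a tumor also leaves fewer arrays; otherwise the cause was not tested. The mean of a gene's clusters and the filter on dim genes changed no member's call. Same-numbered tumors of the 2 groups deviated from their group means with correlations across genes of 0.16, 0.04 and 0.20. Each tumor correlated best with its own number, a hint from the data only, and the numbers were not taken as pairs. With the replicate block 3806 genes changed, and 18 members rose and 1 fell: Ikbkb lost its call (adjusted p = 0.0504) and Tnfaip2 gained one (adjusted p = 0.0409). Signal over background limits Cd40, Traf1, Birc3, Malt1, Nfkbie and Ier3 most, which lay below the brightest background probe set on all 6 arrays.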
